A study of Mus musculus with 15 samples.

Results

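Primary mouse ovarian granulosa cells were compared 54 h after transfection with Foxl2 siRNA or with scrambled control siRNA. The comparison rests on 6 of the 15 RNA-seq libraries of the series, chosen by their labels: Foxl2 siRNA replicates 1 to 3 and scrambled replicates 1 to 3, all labelled 54 h. The other 9 libraries are scrambled, Foxl2 siRNA and Esr2 siRNA cultures at 30 h. Per the labels, the cells came from 8-week-old RjOrl:SWISS females and grew in 6-well plates. Both groups received 30 pmol of siRNA with Lipofectamine RNAiMax, so the controls were transfected too. The targeting siRNAs were pools of 3 siRNAs, and the labels name 4 pools without saying which went into which library. The model is therefore a partial, transient knockdown in bulk cultures and not a deletion. The labels do not say whether replicates were separate cultures or animals. The p-values below rest on the spread within groups, estimated over all 15 libraries of the series, and this spread may be technical.

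FOXL2 is a forkhead transcription factor of granulosa cells, the somatic cells that surround the oocyte, make estradiol from androgen precursors and secrete activins, inhibins and follistatin. In the adult mouse ovary it is known for keeping granulosa cells from taking on features of Sertoli cells, their counterpart in the testis, where SOX9 is the central regulator. It acts together with estrogen receptors, of which ESR2 is the granulosa form.

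The scrambled libraries held 54118121, 52139885 and 56889581 gene counts and the Foxl2 siRNA libraries 47647007, 59550065 and 53994730, with 17454 to 17831 genes detected in each. At this depth 3 counts correspond to 0.0504 to 0.0630 CPM (a gene's share of its library's counts, with library sizes scaled by the trimmed mean of M-values), and lower levels were not told apart from 0. Values below are CPM in replicates 1, 2 and 3 in that order, and n is 3 libraries per group throughout. A gene is called when its adjusted p is under 0.05 in edgeR's quasi-likelihood F test, with Benjamini-Hochberg adjustment over the 14907 genes tested of 24490 listed. CPM does not correct for transcript length, so levels are compared between libraries and not between genes. In bulk RNA, fewer cells of a type and less RNA per cell cannot be told apart.

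Foxl2 siRNA replicate 2 stood apart from the other two of its group. On the first principal component, which carried 70.5% of the variance, the scrambled libraries lay at -45.6, -41.9 and -43.8 and the Foxl2 siRNA libraries at 62.9, 16.7 and 51.7. This library also kept the most Foxl2 RNA. Foxl2 (chr9:98955607-98958126, GRCm38.p6) measured 189, 154 and 166 CPM in the controls and 33.7, 57.5 and 25.2 CPM after Foxl2 siRNA. No Foxl2 siRNA library reached the lowest control, and the fitted difference was 4.36-fold (log2 change -2.13 ± 0.31 SE, adjusted p = 0.000191). Among the 887 genes called higher by at least 2-fold, replicate 2 was the Foxl2 siRNA library nearest to the scrambled mean in 67.1%. Among the 643 called lower by at least 2-fold it was nearest in 71.2%. Results that rest on it are given with and without it.

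Foxl2 siRNA changed 38.8% of all genes tested, 18.5% higher and 20.3% lower, and the median log2 change over all genes was -0.01. The large changes were fewer. Genes called with at least a 2-fold change made up 10.3% of those tested (5.95% higher and 4.31% lower), and those with at least a 4-fold change numbered 249 higher and 227 lower. In contrast, 1249 of the genes called higher and 1709 of those called lower changed by less than 1.5-fold. The 3 libraries of each group did not overlap for 51.4% of all tested genes, which is the background for each statement of overlap below. The gene lists below hold 1480 tested genes, of which 416 were called higher and 358 lower. Shares in them are of tested members only. A member near 0 in the controls was tested only if other groups held enough counts, which can tilt a list upward.

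**Figure D1:**
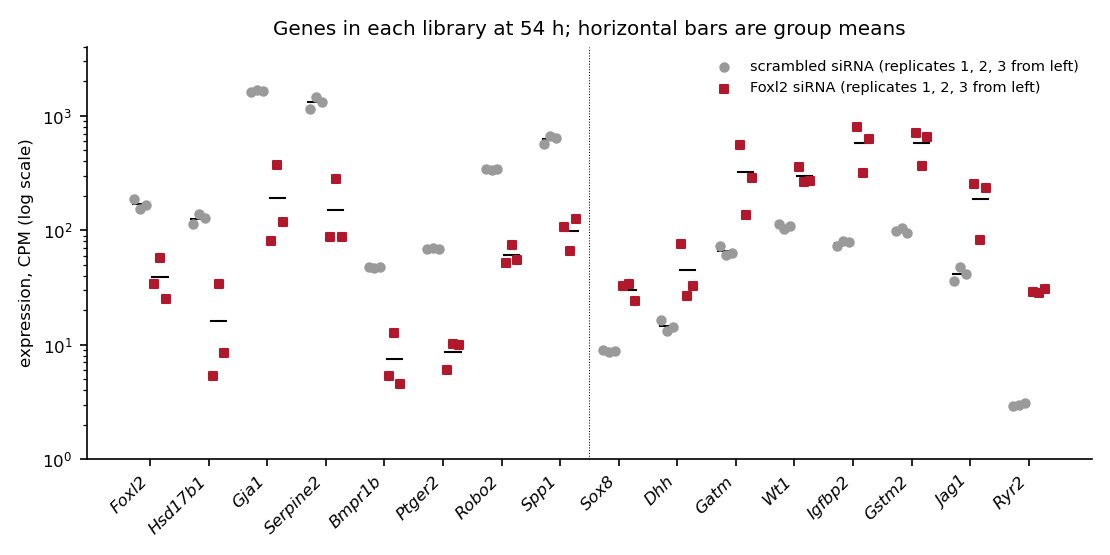
Expression in CPM (log scale) of 16 genes in each library at 54 h, scrambled siRNA as grey circles and Foxl2 siRNA as red squares, with group means as bars. Genes left of the dotted line were called lower and genes right of it higher, and Foxl2 siRNA replicate 2 is the middle square of each set.

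Granulosa identity genes were called lower more often than higher. Of 33 tested genes of this list, 16 were called lower (48.5%, against 20.3% of all genes), 7 were called higher (21.2%, against 18.5%) and 10 were not called, and the median log2 change was -0.34. Gja1 encodes the main connexin of gap junctions between granulosa cells. It measured 1621, 1701 and 1649 CPM in the controls and 80.5, 375 and 119 CPM after Foxl2 siRNA. All Foxl2 siRNA libraries lay far below the lowest control, with replicate 2 the highest of them (log2 change -3.11 ± 0.53 SE, adjusted p = 0.000566). Serpine2, a secreted inhibitor of plasminogen activators and thrombin that granulosa cells make in quantity, measured 1156, 1451 and 1332 CPM in the controls and 86.6, 281 and 87.7 CPM after Foxl2 siRNA. The groups were far apart here as well (log2 change -3.11 ± 0.47 SE, adjusted p = 0.00028). Hsd17b1, the enzyme that turns estrone into estradiol, measured 113, 138 and 129 CPM in the controls and 5.32, 34.3 and 8.44 CPM after Foxl2 siRNA. Replicates 1 and 3 had lost nearly all of it while replicate 2 kept more (log2 change -2.97 ± 0.59 SE, adjusted p = 0.00166). Leaving out Foxl2 siRNA replicate 2 gave a log2 change of -4.05 for Gja1, -3.91 for Serpine2 and -4.19 for Hsd17b1.

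Members of the same list that were called higher included Gata4, a zinc finger factor shared by granulosa and Sertoli cells, with 636, 574 and 598 CPM in the controls and 841, 1009 and 761 CPM after Foxl2 siRNA (log2 change 0.53 ± 0.09 SE, adjusted p = 0.00078). Amhr2, the receptor of anti-Müllerian hormone, measured 159, 124 and 131 CPM in the controls and 243, 255 and 184 CPM after Foxl2 siRNA (log2 change 0.72 ± 0.15 SE, adjusted p = 0.00192). Neither gene overlapped between groups. Not called were Inha, the inhibin alpha subunit (log2 change -0.15 ± 0.17 SE, adjusted p = 0.533), Inhba, the activin beta A subunit (log2 change -0.28 ± 0.21 SE, adjusted p = 0.317), Kitl, the ligand of the oocyte receptor Kit (log2 change -0.13 ± 0.09 SE, adjusted p = 0.307), and Wnt4 (log2 change -0.099 ± 0.19 SE, adjusted p = 0.712). Fshr, the follicle-stimulating hormone receptor and a defining granulosa gene, was low in every library, at 0.238, 0.645 and 0.606 CPM in the controls and 0.4399, 0.438 and 0.655 CPM after Foxl2 siRNA.

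The pattern of loss included Cyp19a1 (aromatase), with 3.28, 3.21 and 3.89 CPM in the controls and 0.04399, 0.0843 and 0.0385 CPM after Foxl2 siRNA, and Slc7a8, a carrier of neutral amino acids, with 501, 495 and 515 CPM in the controls and 18.9, 50.1 and 28.05 CPM after Foxl2 siRNA. Every Foxl2 siRNA library was far below every control for both, and for Cyp19a1 they lay at about the level of 3 counts. The windows of 250 bases before RefSeq starts of these genes (GRCm38.p6, both on the minus strand, 5′ to 3′) were read for letters known from DNA-binding factors, and are shown to let the reader see the sequence next to the response; Cyp19a1 has 3 RefSeq starts in the table and the outermost is printed. Capitals mark the nuclear receptor core, AGGTCA or its reverse complement TGACCT. Cyp19a1 lies at chr9:54268165-54268414 and Slc7a8 at chr14:54781887-54782136:
Cyp19a1: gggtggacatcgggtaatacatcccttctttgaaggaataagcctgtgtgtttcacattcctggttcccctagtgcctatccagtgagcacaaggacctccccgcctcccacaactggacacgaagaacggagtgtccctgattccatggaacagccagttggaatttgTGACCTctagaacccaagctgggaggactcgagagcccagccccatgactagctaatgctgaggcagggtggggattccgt
Slc7a8: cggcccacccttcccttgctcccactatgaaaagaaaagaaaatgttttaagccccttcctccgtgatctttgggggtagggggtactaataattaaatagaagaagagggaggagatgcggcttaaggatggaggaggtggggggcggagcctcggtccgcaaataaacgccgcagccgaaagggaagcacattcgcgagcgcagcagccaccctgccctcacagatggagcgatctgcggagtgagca
The Cyp19a1 window held TGACCT once, with its first base 81 bases before the start, and the windows of its other 2 starts and that of Slc7a8 held neither orientation. None of these windows held the forkhead core TGTTTAC or GTAAACA. Of all 32851 RefSeq windows of this length, 14% held the nuclear receptor core and 3.17% the forkhead core. Among the windows of genes called lower by at least 2-fold the shares were 12.8% and 2.66%, and among those of genes called higher by at least 2-fold 13.5% and 2.04%, against 11.1% and 2.16% for all tested genes. These are counts of letters in short windows, and the gene counts do not say which start was used.

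Sertoli and testis genes moved the other way. Of 29 tested, 23 were called higher (79.3%, against 18.5% of all genes) and 2 lower (6.9%, against 20.3%). The median log2 change was 1.13. By at least 2-fold, 17 were called higher, where the share of all genes was 5.95%. Sox8, a close relative of Sox9 that backs it up in the testis, measured 9.03, 8.73 and 8.82 CPM in the controls and 32.8, 34.01 and 24.04 CPM after Foxl2 siRNA. All Foxl2 siRNA libraries lay well above the controls, replicate 2 included (log2 change 1.77 ± 0.18 SE, adjusted p = 1.55e-05). Dhh, the hedgehog ligand by which Sertoli cells signal to their neighbours, measured 16.3, 13.1 and 14.3 CPM in the controls and 75.6, 26.5 and 32.5 CPM after Foxl2 siRNA. Replicate 1 was the highest (log2 change 1.62 ± 0.34 SE, adjusted p = 0.00235), and without it the log2 change was 1.02. Gatm, the first enzyme of creatine synthesis, measured 72.6, 60.9 and 63.97 CPM in the controls and 555, 137 and 286 CPM after Foxl2 siRNA. Here too replicate 1 led and replicate 2 trailed (log2 change 2.31 ± 0.37 SE, adjusted p = 0.000403), or 1.68 in the fit that leaves out Foxl2 siRNA replicate 1. Defb19, a defensin of the male gonad, measured 3.06, 2.56 and 2.63 CPM in the controls and 25.03, 10.7 and 17.8 CPM after Foxl2 siRNA (log2 change 2.695 ± 0.34 SE, adjusted p = 7.45e-05). Cldn11, a claudin of the Sertoli cell barrier, measured 1.85, 1.56 and 1.44 CPM in the controls and 19.4, 4.28 and 6.16 CPM after Foxl2 siRNA (log2 change 2.62 ± 0.51 SE, adjusted p = 0.00141), or 1.69 in the fit that leaves out Foxl2 siRNA replicate 1. For none of these 5 genes did the groups overlap.

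Some members of the list did not follow. Dmrt1, a testis regulator, had 0 counts in the scrambled libraries and 2 in the Foxl2 siRNA libraries and was not tested. Vnn1, an enzyme that releases cysteamine, was called lower at 154, 169 and 164 CPM in the controls and 91.8, 127 and 80.6 CPM after Foxl2 siRNA (log2 change -0.700 ± 0.20 SE, adjusted p = 0.0129), and it lost its call without Foxl2 siRNA replicate 1 (adjusted p = 0.0512) or 3 (adjusted p = 0.0577). The other member called lower was Cyp26b1, which degrades retinoic acid, with an adjusted p of 0.0437 and overlapping groups. Its call was lost without any library except Foxl2 siRNA replicate 2. So the count of 2 members called lower fell to 1 without any scrambled library and to 0 without Foxl2 siRNA replicate 1 or 3. Wt1, a zinc finger factor of Sertoli cells, early granulosa cells and the ovarian surface, measured 113, 103 and 108 CPM in the controls and 359, 267 and 268 CPM after Foxl2 siRNA, with no overlap (log2 change 1.46 ± 0.16 SE, adjusted p = 2.85e-05). Zfpm1, a cofactor of GATA factors in the gonad, measured 28.5, 29.7 and 28.9 CPM in the controls and 84.1, 62.9 and 65.3 CPM after Foxl2 siRNA (log2 change 1.28 ± 0.14 SE, adjusted p = 1.87e-05). In the list of 54 tested gonadal transcription factors, 14 were called higher (25.9%, against 18.5% of all genes) and 14 lower (25.9%, against 20.3%). The latter became 9 in the fit of the 6 libraries alone. Foxo1, the forkhead factor of growing follicles, measured 65.7, 74.03 and 66.6 CPM in the controls and 32.6, 37.02 and 33.4 CPM after Foxl2 siRNA (log2 change -1.001 ± 0.13 SE, adjusted p = 9.62e-05), and Runx1 measured 91.5, 92.9 and 93.4 CPM in the controls and 56.2, 53.5 and 69.5 CPM after Foxl2 siRNA (log2 change -0.63 ± 0.13 SE, adjusted p = 0.00243).

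**Figure D2:**
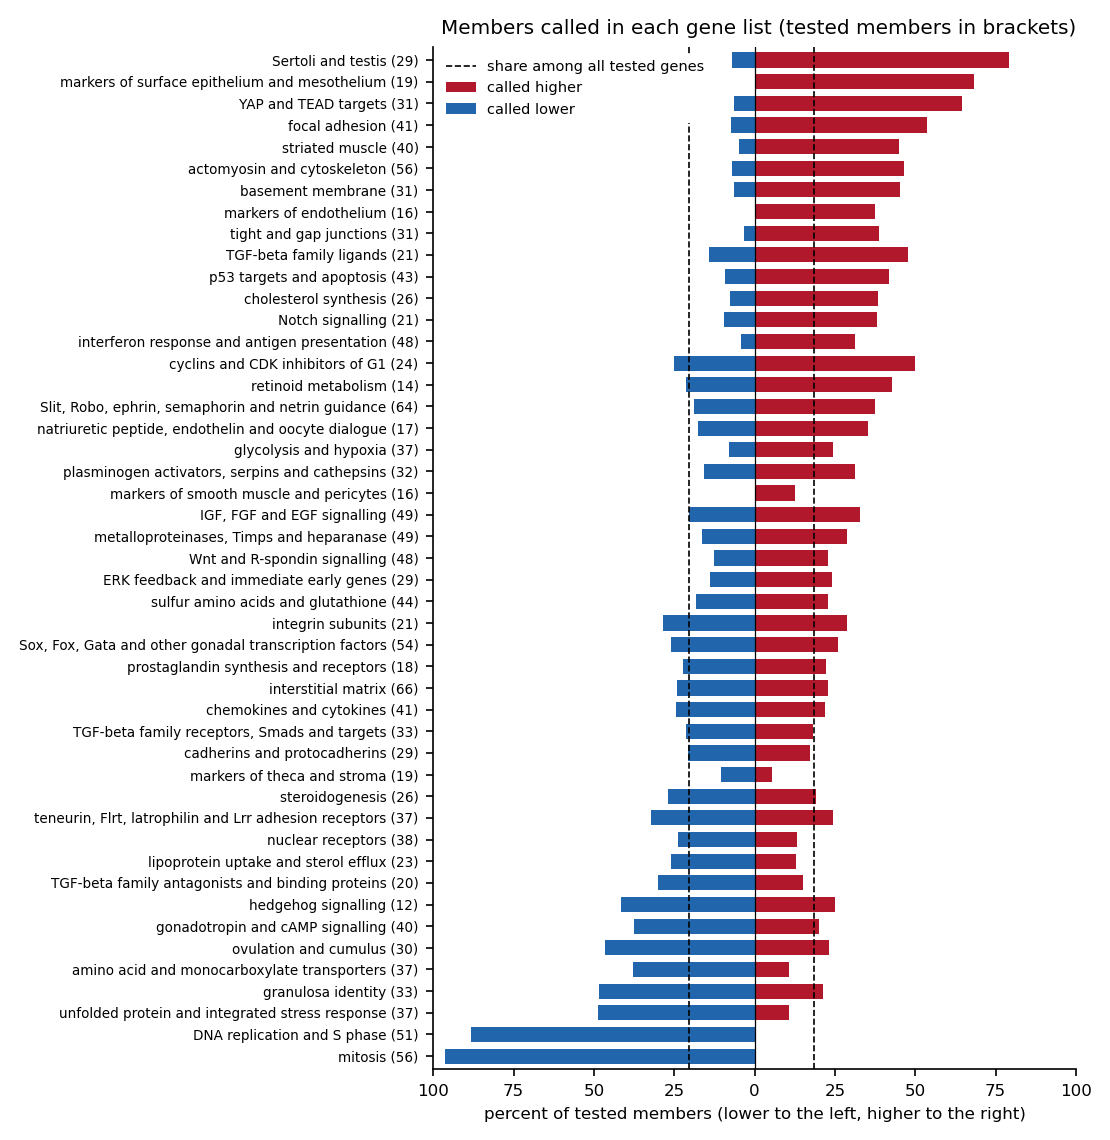
Percent of the tested members of each of 47 gene lists called higher (red, to the right) or lower (blue, to the left) at 54 h, with dashed lines at the shares among all tested genes, 18.5% and 20.3%. Sertoli and testis genes reach 79.3% higher, and mitosis genes reach 96.4% lower.

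Enzymes of steroid synthesis moved in both directions. Of 26 tested, 5 were called higher and 7 lower, shares of 19.2% and 26.9% that lie near the background of 18.5% and 20.3%. By at least 2-fold, 2 were called higher and 5 lower, where the shares of all genes were 5.95% and 4.31%. The 5 called higher became 3 without Foxl2 siRNA replicate 1. Cyp11a1, which cuts the cholesterol side chain, measured 1863, 2009.8 and 2002 CPM in the controls and 3255, 2423 and 3856 CPM after Foxl2 siRNA (log2 change 0.699 ± 0.14 SE, adjusted p = 0.00174). Fdxr, the reductase that feeds it electrons, measured 105, 109.7 and 108 CPM in the controls and 179, 140.1 and 164 CPM after Foxl2 siRNA (log2 change 0.58 ± 0.11 SE, adjusted p = 0.00146). Both were higher in every Foxl2 siRNA library than in any control. Further down the path, Hsd3b1, which makes progesterone from pregnenolone, measured 2638, 2749.9 and 2769 CPM in the controls and 943, 1584 and 1199.9 CPM after Foxl2 siRNA (log2 change -1.13 ± 0.18 SE, adjusted p = 0.000317). Hsd3b1 belongs to a family of near-identical genes, so its reads may be shared with other members. Hsd11b2, which inactivates glucocorticoids, fell 5.305-fold, from 51.3, 49.7 and 52.3 CPM to 9.24, 9.64 and 10.02 CPM, with little spread between libraries (log2 change -2.41 ± 0.22 SE, adjusted p = 5.84e-06). Cyp17a1, the androgen-forming enzyme of theca cells, had 23 counts over the controls and 7 over the Foxl2 siRNA libraries and was not tested.

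Cholesterol synthesis genes had a higher median level in 2 of the 3 Foxl2 siRNA libraries. Of 26 tested enzymes and regulators, 10 were called higher (38.5%, against 18.5% of all genes) and 2 lower (7.7%, against 20.3%). The median log2 change was 0.43. Fdft1, squalene synthase, measured 191, 203 and 207 CPM in the controls and 525, 281 and 493 CPM after Foxl2 siRNA (log2 change 1.11 ± 0.18 SE, adjusted p = 0.000404). Hmgcs1, an early enzyme of the pathway, measured 536, 649 and 630.1 CPM in the controls and 1275, 817 and 1248 CPM after Foxl2 siRNA (log2 change 0.88 ± 0.18 SE, adjusted p = 0.00191). In both, replicates 1 and 3 were near each other and replicate 2 lay between them and the controls. Over the list the median log2 difference from the scrambled mean was 0.62, -0.16 and 0.67 in Foxl2 siRNA replicates 1, 2 and 3. Without replicate 2 the members called higher numbered 20, and without Foxl2 siRNA replicate 1 or scrambled replicate 1 they numbered 6. In the fit of the 6 libraries alone they numbered 5. The 2 members called lower became 1 without any library except Foxl2 siRNA replicate 2. Sc5d, the sterol desaturase near the end of the pathway, went against the list at 296, 269.9 and 299 CPM in the controls and 149.8, 129.8 and 139.5 CPM after Foxl2 siRNA, lower in all 3 libraries (log2 change -1.05 ± 0.07 SE, adjusted p = 1.11e-06). Of 23 tested genes of lipoprotein uptake and efflux, 3 were called higher (13%, against 18.5% of all genes) and 6 lower (26.1%, against 20.3%). The 6 became 3 without Foxl2 siRNA replicate 1. Abcg1, a sterol exporter, measured 21.9, 21.4 and 22.1 CPM in the controls and 51.1, 51.97 and 37.4 CPM after Foxl2 siRNA (log2 change 1.101 ± 0.11 SE, adjusted p = 1.41e-05). Vldlr, a lipoprotein receptor, measured 104, 105 and 105 CPM in the controls and 59.1, 66.7 and 54.9 CPM after Foxl2 siRNA (log2 change -0.79 ± 0.07 SE, adjusted p = 6.8e-06). Pparg, the fatty-acid-sensing nuclear receptor of granulosa cells, measured 63.2, 67.03 and 64.1 CPM in the controls and 4.95, 15.2 and 5.16 CPM after Foxl2 siRNA (log2 change -2.93 ± 0.47 SE, adjusted p = 0.000402), or -3.67 in the fit that leaves out Foxl2 siRNA replicate 2.

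Gonadotropins act on granulosa cells through cyclic AMP, and several parts of that pathway were lower. Of 40 tested genes of gonadotropin and cAMP signalling, 15 were called lower (37.5%, against 20.3% of all genes) and 8 higher (20%, against 18.5%). The 8 became 5 without scrambled replicate 1 or Foxl2 siRNA replicate 3. Among the phosphodiesterases, which break cAMP down, Pde3b measured 70.5, 56.1 and 67.5 CPM in the controls and 10.6, 15.9 and 12.2 CPM after Foxl2 siRNA (log2 change -2.32 ± 0.18 SE, adjusted p = 1.93e-06). Pde4b measured 73.2, 63.7 and 71.6 CPM in the controls and 12.8, 19.8 and 16.4 CPM after Foxl2 siRNA (log2 change -2.09 ± 0.19 SE, adjusted p = 5.84e-06). Pde8a, a high-affinity member, measured 57.5, 65.8 and 64.1 CPM in the controls and 25.6, 28.2 and 29.2 CPM after Foxl2 siRNA (log2 change -1.17 ± 0.06 SE, adjusted p = 1.67e-07). All 3 were lower in each Foxl2 siRNA library than in each control. Prkar2b, a regulatory subunit of protein kinase A, measured 204, 199 and 206 CPM in the controls and 47.5, 51.6 and 64.9 CPM after Foxl2 siRNA (log2 change -1.89 ± 0.13 SE, adjusted p = 7.1e-07). Adcy1, a calcium-stimulated adenylyl cyclase, rose from a low level, 1.74, 2.56 and 1.76 CPM in the controls and 22.7, 19.4 and 12.96 CPM after Foxl2 siRNA (log2 change 3.18 ± 0.24 SE, adjusted p = 1.56e-06). Rapgef3, the cAMP-activated exchange factor Epac, rose as well, from 2.91 ± 0.247 to 12.2 ± 3.67 CPM, mean ± SD (log2 change 2.07 ± 0.25 SE, adjusted p = 5.02e-05). Akap12, a scaffold for protein kinase A, measured 32.4, 62.2 and 49.4 CPM in the controls and 194, 129.6 and 247 CPM after Foxl2 siRNA (log2 change 1.99 ± 0.30 SE, adjusted p = 0.000287).

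Genes of ovulation and cumulus expansion were called lower more often than higher. Of 30 tested, 14 were called lower (46.7%, against 20.3% of all genes), 7 higher (23.3%, against 18.5%) and 9 not called. The median log2 change was -0.55. Ptger2, the prostaglandin E receptor of granulosa and cumulus cells, measured 68.00, 69.8 and 68.7 CPM in the controls and 6.07, 10.2 and 9.86 CPM after Foxl2 siRNA. The controls differed by little and every Foxl2 siRNA library, replicate 2 included, was at about the same low level (log2 change -2.98 ± 0.17 SE, adjusted p = 4.18e-07). Ptgs2, the inducible cyclooxygenase that makes the precursor of its ligand, measured 229.9, 239.8 and 253 CPM in the controls and 48.6, 64.1 and 105 CPM after Foxl2 siRNA (log2 change -1.73 ± 0.24 SE, adjusted p = 0.000159). Pla2g4a, which frees arachidonic acid for it, measured 109, 117 and 114 CPM in the controls and 56.4, 65.3 and 79.4 CPM after Foxl2 siRNA (log2 change -0.76 ± 0.10 SE, adjusted p = 7.93e-05). Ptges, the terminal synthase, went the opposite way at 111, 123 and 114 CPM in the controls and 172, 216 and 208 CPM after Foxl2 siRNA (log2 change 0.78 ± 0.09 SE, adjusted p = 4.24e-05). Has2, which makes the hyaluronan of the cumulus matrix, measured 13.6, 23.2 and 20.6 CPM in the controls and 0.836, 4.72 and 4.08 CPM after Foxl2 siRNA (log2 change -2.56 ± 0.56 SE, adjusted p = 0.00311). Btc, the epidermal growth factor family ligand betacellulin, measured 11.4, 9.503 and 11.4 CPM in the controls and 2.86, 3.66 and 2.93 CPM after Foxl2 siRNA (log2 change -1.77 ± 0.21 SE, adjusted p = 4.05e-05), and its receptor gene Egfr measured 92.5, 91.5 and 92.01 CPM in the controls and 20.7, 38.2 and 43.9 CPM after Foxl2 siRNA (log2 change -1.42 ± 0.21 SE, adjusted p = 0.000253). The groups did not overlap for any of these 7 genes, of which Pla2g4a and Egfr are not on the ovulation list. Over the list of prostaglandin synthesis and receptors, 4 of 18 tested genes were called higher and 4 lower. These shares, 22.2% each, lie near the 18.5% and 20.3% of all genes. Areg, a further ligand of the receptor, was at 0.3296, 0.247 and 0.329 CPM in the controls and 0.286, 0.152 and 0.366 CPM after Foxl2 siRNA and not called. Edn2, the endothelin made by granulosa cells at ovulation, was the largest change upward in the list: 0.494, 0.9105 and 0.606 CPM in the controls and 16.1, 4.08 and 15.9 CPM after Foxl2 siRNA (log2 change 4.17 ± 0.54 SE, adjusted p = 9.04e-05). Adamts1, a protease of the ovulating follicle, measured 52.5, 65.2 and 60.2 CPM in the controls and 108, 93.5 and 126 CPM after Foxl2 siRNA (log2 change 0.88 ± 0.14 SE, adjusted p = 0.000294).

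Antagonists and receptors of the TGF-beta family included large falls. Of 20 tested antagonists and binding proteins, 6 were called lower (30%, against 20.3% of all genes) and 3 higher (15%, against 18.5%). By at least 2-fold, 5 were called lower, where the share of all genes was 4.31%. The 3 became 1 without scrambled replicate 3 or Foxl2 siRNA replicate 1. Chrdl1, a chordin-like antagonist of bone morphogenetic proteins (BMPs), measured 4.74, 6.85 and 5.21 CPM in the controls and 0.286, 0.657 and 0.2697 CPM after Foxl2 siRNA (log2 change -3.76 ± 0.37 SE, adjusted p = 1.11e-05). Of the receptors, Bmpr1b, the type I BMP receptor of granulosa cells, measured 47.4, 46.8 and 47.7 CPM in the controls and 5.301, 12.6 and 4.53 CPM after Foxl2 siRNA (log2 change -2.66 ± 0.37 SE, adjusted p = 0.000133). Bmpr2 measured 644, 608 and 609 CPM in the controls and 361, 427 and 309.6 CPM after Foxl2 siRNA (log2 change -0.76 ± 0.10 SE, adjusted p = 0.000125). Leaving out Foxl2 siRNA replicate 2 moved the log2 change of Bmpr1b to -3.26. Id3, a target of BMP signalling, measured 267, 239 and 239.5 CPM in the controls and 85.5, 125 and 65.8 CPM after Foxl2 siRNA (log2 change -1.43 ± 0.26 SE, adjusted p = 0.000861), while Id1, another, was not called (log2 change -0.44 ± 0.19 SE, adjusted p = 0.0867). Smad7, the inhibitory Smad, measured 48.99, 52.1 and 49.3 CPM in the controls and 74.02, 78.2 and 71.7 CPM after Foxl2 siRNA, a small rise with little spread (log2 change 0.57 ± 0.05 SE, adjusted p = 9.22e-06). Of 33 tested receptors, Smads and targets, 6 were called higher and 7 lower, close to the background. Of 21 tested ligands, 10 were called higher (47.6%, against 18.5% of all genes) and 3 lower (14.3%, against 20.3%). The 10 became 6 without scrambled replicate 1 or 2. Tgfb2 measured 18.3, 30.3 and 25.4 CPM in the controls and 78.5, 41.6 and 113 CPM after Foxl2 siRNA (log2 change 1.65 ± 0.32 SE, adjusted p = 0.00153), and Bmp6 measured 28.9, 42.4 and 36.7 CPM in the controls and 13.9, 19.3 and 14.5 CPM after Foxl2 siRNA (log2 change -1.18 ± 0.18 SE, adjusted p = 0.000274).

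Other ligand and receptor systems changed gene by gene. In the Wnt and R-spondin list of 48 tested genes, 11 were called higher (22.9%, against 18.5% of all genes) and 6 lower (12.5%, against 20.3%). The 6 became 10 without Foxl2 siRNA replicate 2. Axin2, a feedback target of beta-catenin, measured 21.4, 20.3 and 20.6 CPM in the controls and 69.6, 52.7 and 77.7 CPM after Foxl2 siRNA (log2 change 1.68 ± 0.19 SE, adjusted p = 2.71e-05). Rspo1, the R-spondin of the developing ovary, measured 0.458, 0.607 and 0.709 CPM in the controls and 5.697, 6.71 and 3.18 CPM after Foxl2 siRNA (log2 change 3.13 ± 0.47 SE, adjusted p = 0.000263). Wnt6 measured 1.08, 0.759 and 1.09 CPM in the controls and 13.9, 5.95 and 3.91 CPM after Foxl2 siRNA (log2 change 3.02 ± 0.50 SE, adjusted p = 0.000469), or 2.33 in the fit that leaves out Foxl2 siRNA replicate 1. The controls lay near or under 1 CPM for the 2 ligand genes and all Foxl2 siRNA libraries lay above 3 CPM. Dkk3, a secreted Dickkopf protein, fell: 92.7, 102 and 95.9 CPM in the controls and 12.5, 49.7 and 31.6 CPM after Foxl2 siRNA (log2 change -1.63 ± 0.35 SE, adjusted p = 0.00296).

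Of 21 tested Notch pathway genes, 8 were called higher (38.1%, against 18.5% of all genes) and 2 lower (9.5%, against 20.3%). The 2 lower members were Rbpj and Hey2, and neither call held in every fit that left out 1 library: none was called without scrambled replicate 2 or 3, 1 without scrambled replicate 1 or Foxl2 siRNA replicate 1, and 4 members without Foxl2 siRNA replicate 3. Jag1, a ligand, measured 35.99, 47.5 and 41.2 CPM in the controls and 253, 82.3 and 233 CPM after Foxl2 siRNA (log2 change 2.19 ± 0.37 SE, adjusted p = 0.000598). Lfng, the glycosyltransferase that tunes ligand choice, measured 9.32, 9.69 and 10.1 CPM in the controls and 48.3, 32.3 and 43.5 CPM after Foxl2 siRNA (log2 change 2.09 ± 0.20 SE, adjusted p = 1.04e-05). Notch1 measured 16.1, 15.6 and 15.2 CPM in the controls and 45.8, 26.9 and 31.2 CPM after Foxl2 siRNA (log2 change 1.15 ± 0.20 SE, adjusted p = 0.000621), and the target gene Hes1 measured 25.6, 23.01 and 22.6 CPM in the controls and 46.04, 30.8 and 39.1 CPM after Foxl2 siRNA (log2 change 0.703 ± 0.14 SE, adjusted p = 0.00185). In all 4 genes replicate 2 was the lowest Foxl2 siRNA library and still lay above the controls. In the hedgehog list of 12 tested genes, 3 were called higher (25%, against 18.5% of all genes) and 5 lower (41.7%, against 20.3%). The 5 became 3 in the fit of the 6 libraries alone. The ligand Ihh, which granulosa cells send to theca cells, measured 2.69, 3.41 and 3.84 CPM in the controls and 0.264, 0.506 and 0.193 CPM after Foxl2 siRNA (log2 change -3.34 ± 0.46 SE, adjusted p = 0.000142), opposite in direction to Dhh. Gli1, the main target gene of the pathway, was under 0.3 CPM in every library and was not called.

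Of 49 tested genes of insulin-like growth factor (IGF), FGF and EGF signalling, 16 were called higher (32.7%, against 18.5% of all genes) and 10 lower (20.4%, against 20.3%). The IGF binding proteins moved in both directions. Igfbp2 measured 73.3, 80.5 and 79.8 CPM in the controls and 794, 316 and 634 CPM after Foxl2 siRNA (log2 change 2.899 ± 0.30 SE, adjusted p = 1.55e-05). Igfbp3 measured 2.399, 8.93 and 5.45 CPM in the controls and 48.2, 30.05 and 55.98 CPM after Foxl2 siRNA (log2 change 3.000 ± 0.53 SE, adjusted p = 0.000731). Igfbp5 measured 448, 479.9 and 508 CPM in the controls and 87.4, 177 and 74.7 CPM after Foxl2 siRNA (log2 change -2.08 ± 0.33 SE, adjusted p = 0.000383). Each of these 3 genes separated the groups. Fgf18, a fibroblast growth factor, measured 13.2, 14.5 and 14.05 CPM in the controls and 46.2, 48.9 and 37.9 CPM after Foxl2 siRNA, with replicate 2 as high as the others (log2 change 1.67 ± 0.10 SE, adjusted p = 4.05e-07). In retinoid metabolism, Stra6, the membrane receptor for retinol-binding protein, measured 3.296, 4.34 and 3.39 CPM in the controls and 42.4, 14.2 and 33.3 CPM after Foxl2 siRNA (log2 change 3.02 ± 0.40 SE, adjusted p = 0.000101). Aldh1a1, a retinaldehyde dehydrogenase, measured 4017, 4051 and 4041 CPM in the controls and 8458, 6798 and 8667 CPM after Foxl2 siRNA (log2 change 0.98 ± 0.09 SE, adjusted p = 6.06e-06). Crabp2, which carries retinoic acid to its receptor, measured 239, 259 and 250.5 CPM in the controls and 42.3, 89.4 and 64.3 CPM after Foxl2 siRNA (log2 change -1.93 ± 0.23 SE, adjusted p = 4.83e-05). Of 14 tested genes of that list 6 were called higher (42.9%, against 18.5% of all genes) and 3 lower (21.4%, against 20.3%). The 6 became 3 without scrambled replicate 1 or 3.

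Focal adhesion and cytoskeleton genes were called higher more often than lower. Of 41 tested focal adhesion genes, 22 were called higher (53.7%, against 18.5% of all genes), 3 lower (7.3%, against 20.3%) and 16 not called. The median log2 change was 0.37. The 3 became 1 without scrambled replicate 1 or Foxl2 siRNA replicate 1 or 3. Bcar1, the adaptor p130Cas at the centre of focal adhesions, had one of the smallest p-values of all genes and measured 156, 157 and 154 CPM in the controls and 345, 331 and 324 CPM after Foxl2 siRNA. The libraries within each group were nearly equal (log2 change 1.099 ± 0.06 SE, adjusted p = 1.67e-07). Zyx (zyxin), recruited to adhesions under tension, measured 315, 359.8 and 337 CPM in the controls and 604, 663 and 675 CPM after Foxl2 siRNA (log2 change 0.94 ± 0.08 SE, adjusted p = 3e-06). Tns1 (tensin) measured 129, 211 and 165 CPM in the controls and 431, 464 and 461 CPM after Foxl2 siRNA (log2 change 1.43 ± 0.19 SE, adjusted p = 0.000124), and Parvb (beta-parvin) measured 3.83, 4.29 and 4.83 CPM in the controls and 33.9, 27.9 and 15.03 CPM after Foxl2 siRNA (log2 change 2.57 ± 0.32 SE, adjusted p = 6.36e-05). Of 56 tested actomyosin and cytoskeleton genes, 26 were called higher (46.4%, against 18.5% of all genes), 4 lower (7.1%, against 20.3%) and 26 not called. Myl9, a myosin light chain, measured 217, 212 and 213 CPM in the controls and 476, 403 and 424 CPM after Foxl2 siRNA (log2 change 1.02 ± 0.10 SE, adjusted p = 7.71e-06). Vim (vimentin) measured 1499.8, 1709 and 1616 CPM in the controls and 3435, 2695 and 3724 CPM after Foxl2 siRNA (log2 change 1.03 ± 0.10 SE, adjusted p = 1.25e-05). Acta2 and Tagln, actin and transgelin of smooth muscle, differed more among the controls than between groups and were not called (0.426 and 0.113 were their adjusted p).

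YAP and TEAD are regulators of transcription that respond to cell shape and tension. The list of their targets also holds the genes of these regulators and of their partner Wwtr1. Of 31 tested, 20 were called higher (64.5%, against 18.5% of all genes) and 2 lower (6.5%, against 20.3%). The 2 were regulators, Yap1 and Tead2. Without Foxl2 siRNA replicate 2 the members called lower numbered 5, and without any other 1 library they numbered 1. Ctgf, a matricellular protein, measured 488, 467 and 465 CPM in the controls and 1856, 1088 and 1562 CPM after Foxl2 siRNA (log2 change 1.67 ± 0.22 SE, adjusted p = 0.000112). Cyr61, its close relative, measured 222, 256 and 242 CPM in the controls and 513, 611 and 528 CPM after Foxl2 siRNA (log2 change 1.199 ± 0.15 SE, adjusted p = 5.22e-05). Nt5e, the ectoenzyme that makes adenosine, measured 39.6, 44.6 and 41.1 CPM in the controls and 347, 265 and 221 CPM after Foxl2 siRNA (log2 change 2.73 ± 0.23 SE, adjusted p = 3.45e-06). Ankrd1 measured 301, 326 and 330.1 CPM in the controls and 533, 483 and 667 CPM after Foxl2 siRNA (log2 change 0.82 ± 0.17 SE, adjusted p = 0.00231). Yap1 itself was called slightly lower at 186, 190.3 and 188 CPM in the controls and 157, 152 and 168 CPM after Foxl2 siRNA (log2 change -0.24 ± 0.05 SE, adjusted p = 0.00355). The controls and the Foxl2 siRNA libraries did not overlap for any of the 5.

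Integrin subunits changed in both directions. Of 21 tested, 6 were called higher (28.6%, against 18.5% of all genes) and 6 lower (28.6%, against 20.3%). Itga2, a collagen-binding subunit, measured 87.99, 92.7 and 97.2 CPM in the controls and 4.795, 13.9 and 14.5 CPM after Foxl2 siRNA (log2 change -3.06 ± 0.35 SE, adjusted p = 3.14e-05). Itgb3, of the vitronectin receptor, measured 123, 115 and 114 CPM in the controls and 8.95, 30.6 and 9.13 CPM after Foxl2 siRNA (log2 change -2.84 ± 0.40 SE, adjusted p = 0.000166), or -3.69 in the fit that leaves out Foxl2 siRNA replicate 2. Itga7, a laminin-binding subunit, measured 7.91, 11.6 and 9.01 CPM in the controls and 25.3, 35.8 and 32.2 CPM after Foxl2 siRNA (log2 change 1.71 ± 0.20 SE, adjusted p = 3.42e-05), and Itgb8, which activates latent TGF-beta, measured 1.85, 2.295 and 1.89 CPM in the controls and 14.7, 5.26 and 8.38 CPM after Foxl2 siRNA (log2 change 2.23 ± 0.38 SE, adjusted p = 0.000599). Itgb1, the common beta subunit, was not called (log2 change -0.09 ± 0.07 SE, adjusted p = 0.341). Among 29 tested cadherins and protocadherins, 5 were called higher (17.2%) and 6 lower (20.7%), near the background. By at least 2-fold, 3 were called higher and 5 lower, where the shares of all genes were 5.95% and 4.31%. The 5 called higher in all became 3 without replicate 1 and 8 without replicate 2 of Foxl2 siRNA. Cdh3 (P-cadherin) measured 34.3, 45.7 and 39.3 CPM in the controls and 136, 154 and 108 CPM after Foxl2 siRNA (log2 change 1.74 ± 0.15 SE, adjusted p = 3.5e-06) and Pcdh7 measured 399, 402 and 386 CPM in the controls and 66.6, 89.4 and 106 CPM after Foxl2 siRNA (log2 change -2.18 ± 0.17 SE, adjusted p = 2.27e-06). Of 31 tested tight and gap junction genes, 12 were called higher (38.7%, against 18.5% of all genes) and only Gja1 lower (3.2%, against 20.3%). Without Foxl2 siRNA replicate 2, 1 more member joined Gja1. Jam2, a junctional adhesion molecule, measured 153, 169.5 and 162 CPM in the controls and 1092, 407 and 925 CPM after Foxl2 siRNA (log2 change 2.32 ± 0.30 SE, adjusted p = 9.04e-05).

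Receptors of the Slit guidance proteins diverged. Robo2 measured 347, 334 and 345 CPM in the controls and 51.8, 74.3 and 55.6 CPM after Foxl2 siRNA, with every Foxl2 siRNA library far below every control (log2 change -2.498 ± 0.15 SE, adjusted p = 4.18e-07). Robo1 measured 63.3, 63.8 and 64.6 CPM in the controls and 23.7, 21.8 and 27.8 CPM after Foxl2 siRNA (log2 change -1.39 ± 0.09 SE, adjusted p = 8.28e-07). Robo3 rose from 1.01, 0.721 and 1.02 CPM to 4.51, 3.57 and 2.196 CPM (log2 change 1.897 ± 0.26 SE, adjusted p = 0.000134), and the ligand gene Slit2 was not called (log2 change 0.03 ± 0.34 SE, adjusted p = 0.954). Plxna4, a semaphorin receptor, measured 11.8, 12.97 and 11.7 CPM in the controls and 92.01, 72.3 and 69.96 CPM after Foxl2 siRNA (log2 change 2.68 ± 0.30 SE, adjusted p = 2.93e-05). Over the guidance list of 64 tested genes, 24 were called higher (37.5%, against 18.5% of all genes) and 12 lower (18.8%, against 20.3%). In the list of teneurins and leucine-rich adhesion receptors, 9 of 37 were called higher (24.3%, against 18.5% of all genes) and 12 lower (32.4%, against 20.3%). Tenm4, a teneurin, measured 189.9, 164 and 174 CPM in the controls and 4.97, 32.8 and 6.43 CPM after Foxl2 siRNA (log2 change -3.56 ± 0.61 SE, adjusted p = 0.000605), or -4.94 in the fit that leaves out Foxl2 siRNA replicate 2.

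Of 31 tested basement membrane genes, 14 were called higher (45.2%, against 18.5% of all genes), 2 lower (6.5%, against 20.3%) and 15 not called. But the 14 became 7 without scrambled replicate 1 and 8 without replicate 1 of Foxl2 siRNA. Col4a5, a type IV collagen chain, measured 477, 453 and 451 CPM in the controls and 1067, 1028 and 961 CPM after Foxl2 siRNA, among the most even changes of the table (log2 change 1.14 ± 0.07 SE, adjusted p = 4.05e-07). The 2 lower members were Lama1, a laminin chain, with 770.1, 772 and 766 CPM in the controls and 159, 296 and 181 CPM after Foxl2 siRNA (log2 change -1.86 ± 0.22 SE, adjusted p = 4.11e-05), and Dag1, the laminin receptor dystroglycan, with 2462, 2977 and 2709 CPM in the controls and 1068, 1540.4 and 1140.2 CPM after Foxl2 siRNA (log2 change -1.12 ± 0.16 SE, adjusted p = 0.000151). In the interstitial matrix list of 66 tested genes, 15 were called higher (22.7%) and 16 lower (24.2%), near the background of 18.5% and 20.3%. Of the 66, 10 were called higher and 14 lower by at least 2-fold, where the shares of all genes were 5.95% and 4.31%. The 15 became 9 without scrambled replicate 1. The libraries of a group differed here: the list's median difference from the scrambled mean was -0.33, 0.28 and 0.05 in the scrambled libraries and -0.98, 0.24 and 0.68 in the Foxl2 siRNA libraries. Spp1 (osteopontin) measured 572, 666 and 638 CPM in the controls and 107, 65.95 and 125 CPM after Foxl2 siRNA (log2 change -2.66 ± 0.24 SE, adjusted p = 5.51e-06). Fn1 (fibronectin) measured 2531, 2188 and 2280.1 CPM in the controls and 1019, 1456 and 1493 CPM after Foxl2 siRNA (log2 change -0.82 ± 0.15 SE, adjusted p = 0.00103). Col10a1, the network collagen otherwise known from growth plate cartilage, measured 12.2, 8.46 and 8.53 CPM in the controls and 0.198, 0.876 and 0.212 CPM after Foxl2 siRNA (log2 change -4.45 ± 0.45 SE, adjusted p = 1.28e-05), or -5.55 in the fit that leaves out Foxl2 siRNA replicate 2. Col1a1, the type I collagen of fibroblasts, was not called (log2 change 0.46 ± 0.65 SE, adjusted p = 0.608), and it varied widely within groups, at 133, 534 and 342 CPM in the controls and 205, 498 and 682 CPM after Foxl2 siRNA.

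Genes of matrix turnover moved in both directions. Timp3, an inhibitor bound to the matrix, measured 221, 388 and 309 CPM in the controls and 1485, 981 and 1825 CPM after Foxl2 siRNA (log2 change 2.22 ± 0.29 SE, adjusted p = 8.67e-05), and Timp1, a soluble one, measured 88.7, 139.5 and 116 CPM in the controls and 249, 146 and 338 CPM after Foxl2 siRNA (log2 change 1.09 ± 0.24 SE, adjusted p = 0.00344). Mmp2 and Mmp14, gelatinase A and its activator, were not called (log2 change -0.16 ± 0.13 SE, adjusted p = 0.348; log2 change 0.06 ± 0.13 SE, adjusted p = 0.724). Of 49 tested metalloproteinases, Timps and heparanase, 14 were called higher (28.6%, against 18.5% of all genes) and 8 lower (16.3%, against 20.3%). The 8 became 5 without Foxl2 siRNA replicate 1. Of the plasminogen system, Plau (urokinase) measured 932, 633 and 729.96 CPM in the controls and 59.4, 210.1 and 85.2 CPM after Foxl2 siRNA (log2 change -2.69 ± 0.40 SE, adjusted p = 0.000234), or -3.40 in the fit that leaves out Foxl2 siRNA replicate 2. Plaur, its receptor, measured 8.94, 13.1 and 12.3 CPM in the controls and 28.6, 18.8 and 31.03 CPM after Foxl2 siRNA (log2 change 1.19 ± 0.17 SE, adjusted p = 0.000191). Urokinase was lower and its receptor higher in each Foxl2 siRNA library than in each control. Of 32 tested genes of that list 10 were called higher (31.2%, against 18.5% of all genes) and 5 lower (15.6%, against 20.3%). The 5 became 3 when scrambled replicate 2 or 3, or replicate 2 of Foxl2 siRNA, was left out.

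Genes known from heart and skeletal muscle were among those called higher. Of 40 tested of 68 striated muscle genes in the files, 18 were called higher (45%, against 18.5% of all genes) and 2 lower (5%, against 20.3%). The median log2 change was 1.05. By at least 2-fold, 17 of the 40 were called higher, where the share of all genes was 5.95%. Leaving out any library except Foxl2 siRNA replicate 2 took the 2 lower members to 1. Ryr2, a ryanodine receptor that releases stored calcium in cardiac cells, measured 2.93, 2.96 and 3.097 CPM in the controls and 28.6, 28.1 and 30.4 CPM after Foxl2 siRNA. The Foxl2 siRNA libraries were nearly equal, replicate 2 included (log2 change 3.28 ± 0.23 SE, adjusted p = 9.47e-07). Pln (phospholamban), which restrains the calcium pump, had 9 counts over the 3 scrambled libraries and 403 over the 3 Foxl2 siRNA libraries, a ratio of counts per library size of 45.3 (exact 95% interval 23.6 to 99.8, counting error only). Its levels were 0.0183, 0.0948 and 0.0519 CPM in the controls and 3.34, 1.55 and 3.06 CPM after Foxl2 siRNA (log2 change 5.54 ± 0.57 SE, adjusted p = 1.57e-05), and the log2 change was 6.13 without scrambled replicate 2. Neb (nebulin) was among the lower members, at 3.39, 2.73 and 3.097 CPM in the controls and 1.54, 1.28 and 1.71 CPM after Foxl2 siRNA (log2 change -1.02 ± 0.15 SE, adjusted p = 0.00018). Tnnt2, a cardiac troponin, had 2 counts over the controls and 13 over the Foxl2 siRNA libraries and was not tested, and Actc1 was not called (log2 change 0.25 ± 0.67 SE, adjusted p = 0.795). The 28 members not tested had too few counts for the filter. A member near 0 in the scrambled libraries, such as Pln, could pass the filter only through other groups. The share called higher and the median cover tested members only and may be tilted upward by this.

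Proliferation genes fell nearly as a block. Of 56 tested mitosis genes, 54 were called lower (96.4%) and 0 higher, with a median log2 change of -0.78. Of 51 tested DNA replication and S phase genes, 45 were called lower (88.2%) and 0 higher, with a median of -0.63. Of all genes, 20.3% were called lower and 18.5% higher. Mki67, the proliferation marker Ki-67, measured 371, 359 and 348 CPM in the controls and 139, 262 and 152 CPM after Foxl2 siRNA (log2 change -0.96 ± 0.17 SE, adjusted p = 0.000915). Cdk1, the kinase that starts mitosis, measured 172, 164 and 167 CPM in the controls and 81.7, 133 and 89.7 CPM after Foxl2 siRNA (log2 change -0.73 ± 0.18 SE, adjusted p = 0.00745). Mcm10, which helps load the replication machinery, measured 27.2, 24.8 and 24.6 CPM in the controls and 9.79, 12.8 and 11.6 CPM after Foxl2 siRNA (log2 change -1.16 ± 0.12 SE, adjusted p = 1.66e-05), and Pcna, the polymerase clamp, measured 125, 127 and 122 CPM in the controls and 79.98, 98.4 and 93.2 CPM after Foxl2 siRNA (log2 change -0.46 ± 0.09 SE, adjusted p = 0.00106). For each of these 4 genes replicate 2 was the highest Foxl2 siRNA library and still under the lowest control. Most of the falls were moderate, since 7 mitosis and 3 replication genes reached a 2-fold fall. The median log2 difference of the mitosis list from the scrambled mean was -1.06, -0.34 and -0.98 in Foxl2 siRNA replicates 1, 2 and 3. Among G1 regulators, 12 of 24 tested were called higher (50%, against 18.5% of all genes) and 6 lower (25%, against 20.3%). Cdkn2b, an inhibitor of cyclin D kinases, measured 21.3, 19.3 and 19.9 CPM in the controls and 52.6, 31.98 and 55.5 CPM after Foxl2 siRNA (log2 change 1.21 ± 0.16 SE, adjusted p = 0.000108). Cdkn1a, the inhibitor p21, measured 241, 249 and 235 CPM in the controls and 402, 305 and 345 CPM after Foxl2 siRNA (log2 change 0.54 ± 0.10 SE, adjusted p = 0.00134). Ccnd1 (cyclin D1) measured 16.6, 29.9 and 24.6 CPM in the controls and 86.7, 33.6 and 209 CPM after Foxl2 siRNA (log2 change 2.21 ± 0.54 SE, adjusted p = 0.00603), or 1.34 in the fit that leaves out Foxl2 siRNA replicate 3. Gadd45b and Gadd45g, stress-inducible growth arrest genes, measured 20.2, 25.4 and 22.8 CPM in the controls and 86.5, 77.3 and 81.1 CPM after Foxl2 siRNA (log2 change 1.84 ± 0.09 SE, adjusted p = 1.34e-07), and 20.03, 22.4 and 20.2 CPM in the controls and 71.9, 57.6 and 96.4 CPM after Foxl2 siRNA (log2 change 1.85 ± 0.17 SE, adjusted p = 7.71e-06). Of 43 tested p53 targets and apoptosis genes, 18 were called higher (41.9%, against 18.5% of all genes), 1 of them by at least 2-fold. The 4 called lower (9.3%, against 20.3%) became 2 when scrambled replicate 1 or 3, or replicate 3 of Foxl2 siRNA, was left out.

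**Figure D3:**
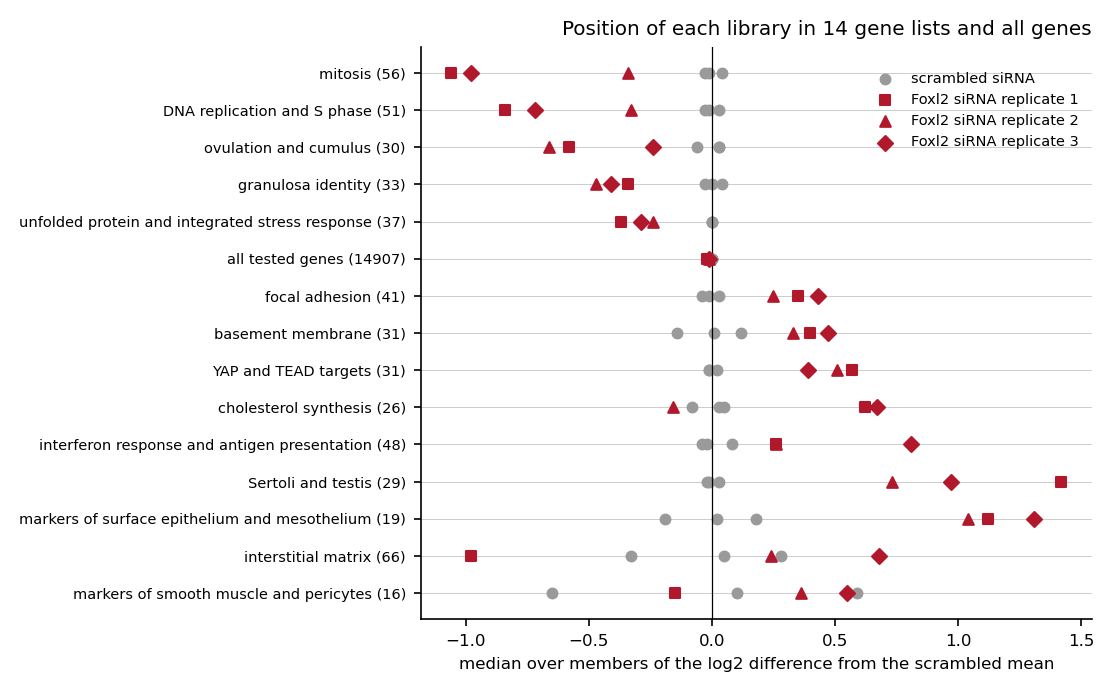
Median over the tested members (number in brackets) of the log2 difference of each library from the scrambled mean, on log2(CPM + 0.5), for 14 gene lists and for all genes, with scrambled libraries as grey circles and each Foxl2 siRNA library by its own red symbol. In mitosis and DNA replication genes replicate 2 (triangle) lies nearer to the controls, at -0.34 and -0.33, and in the interstitial matrix list the Foxl2 siRNA libraries run from -0.98 to 0.68.

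Stress and transport genes were lower at several points. Of 37 tested genes of the unfolded protein and integrated stress response, 18 were called lower (48.6%, against 20.3% of all genes) and 4 higher (10.8%, against 18.5%). Hspa5, the chaperone BiP, measured 1674, 1704 and 1711 CPM in the controls and 1211, 1314 and 1362 CPM after Foxl2 siRNA (log2 change -0.39 ± 0.07 SE, adjusted p = 0.000729). Slc3a2, the partner chain of several amino acid carriers, measured 326, 315 and 324 CPM in the controls and 117, 134 and 142 CPM after Foxl2 siRNA (log2 change -1.296 ± 0.12 SE, adjusted p = 7.52e-06). Atf4, the central factor of the integrated response, was not called (log2 change -0.01 ± 0.07 SE, adjusted p = 0.892), while Ddit3, one of its targets, was higher at 16.8, 17.5 and 18.05 CPM in the controls and 28.3, 27.3 and 27.4 CPM after Foxl2 siRNA (log2 change 0.67 ± 0.07 SE, adjusted p = 2.49e-05). Of 37 tested amino acid and monocarboxylate transporters, 14 were called lower (37.8%, against 20.3% of all genes) and 4 higher (10.8%, against 18.5%). Slc16a13, a monocarboxylate carrier, measured 69.3, 65.04 and 69.99 CPM in the controls and 8.29, 19.2 and 10.98 CPM after Foxl2 siRNA (log2 change -2.404 ± 0.27 SE, adjusted p = 2.86e-05), and Slc16a10, which carries aromatic amino acids, measured 23.8, 21.02 and 22.8 CPM in the controls and 7.35, 8.22 and 5.36 CPM after Foxl2 siRNA (log2 change -1.69 ± 0.15 SE, adjusted p = 5.29e-06). Of 44 genes of sulfur amino acid and glutathione metabolism, 10 were called higher (22.7%) and 8 lower (18.2%), near the background. By at least 2-fold, 6 were called higher and 2 lower, where the shares of all genes were 5.95% and 4.31%. Gstm2, a mu-class glutathione transferase, measured 99.6, 105 and 94.8 CPM in the controls and 712, 368 and 649 CPM after Foxl2 siRNA (log2 change 2.53 ± 0.21 SE, adjusted p = 3e-06), and Gstm1, another, measured 131, 146 and 137 CPM in the controls and 734, 396 and 700.1 CPM after Foxl2 siRNA (log2 change 2.14 ± 0.22 SE, adjusted p = 1.75e-05). These genes are close copies of one another, and reads may be shared between them. Gclc, the rate-limiting enzyme of glutathione synthesis, was not called (log2 change -0.104 ± 0.06 SE, adjusted p = 0.177). Cbs, which makes cystathionine, measured 11.8, 12.5 and 11.9 CPM in the controls and 0.352, 3.98 and 0.559 CPM after Foxl2 siRNA (log2 change -2.86 ± 0.71 SE, adjusted p = 0.00653), or -4.71 in the fit that leaves out Foxl2 siRNA replicate 2.

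Interferon-response genes were highest in Foxl2 siRNA replicate 3. Of 48 tested, 15 were called higher (31.2%, against 18.5% of all genes) and 2 lower (4.2%, against 20.3%). The median log2 change was 0.48. Isg15, a ubiquitin-like protein induced by interferon, measured 22.7, 23.9 and 29.3 CPM in the controls and 43.5, 49.8 and 107 CPM after Foxl2 siRNA, with replicate 3 more than 2 times the other Foxl2 siRNA libraries (log2 change 1.398 ± 0.49 SE, adjusted p = 0.0375). Ifit1 measured 16.1, 14.7 and 18.5 CPM in the controls and 44.9, 35.4 and 78.3 CPM after Foxl2 siRNA (log2 change 1.69 ± 0.41 SE, adjusted p = 0.00563). Without Foxl2 siRNA replicate 3 the members called higher numbered 3, and without scrambled replicate 1, 2 or 3 they numbered 5, 6 and 7. Isg15 lost its call in 4 of those fits, with an adjusted p of 0.188 without Foxl2 siRNA replicate 3, and 0.104, 0.0974 and 0.07 without scrambled replicates 1, 2 and 3. The 2 lower members became 4 without Foxl2 siRNA replicate 3 and 1 without any other library. The list's median difference from the scrambled mean was 0.26, 0.26 and 0.81 in Foxl2 siRNA replicates 1, 2 and 3. Chemokines and cytokines were called near the background, 9 higher (22%) and 10 lower (24.4%) of 41. By at least 2-fold, 7 were called higher and 7 lower, where the shares of all genes were 5.95% and 4.31%. Cxcl12 measured 17.01, 31.2 and 25.5 CPM in the controls and 155, 90.8 and 136 CPM after Foxl2 siRNA (log2 change 2.37 ± 0.32 SE, adjusted p = 0.000102), and Cxcl5, a neutrophil attractant, measured 24.4, 38.5 and 31.3 CPM in the controls and 2.97, 6.57 and 6.800 CPM after Foxl2 siRNA (log2 change -2.52 ± 0.38 SE, adjusted p = 0.000241).

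The next genes had the smallest p-values among those that changed at least 2-fold. They were picked without overlap between groups, and a small p favours little spread. Their separation therefore follows from the choice. Among those that fell, Brinp2, a gene best known from neurons, measured 2.31, 2.18 and 2.18 CPM in the controls and 0.1100, 0.118 and 0.0963 CPM after Foxl2 siRNA (log2 change -4.33 ± 0.27 SE, adjusted p = 4.65e-07). Trpa1, an ion channel of sensory neurons, measured 6.61, 5.86 and 6.38 CPM in the controls and 0.308, 0.404 and 0.327 CPM after Foxl2 siRNA (log2 change -4.16 ± 0.25 SE, adjusted p = 4.18e-07). Far1, which makes fatty alcohols for ether lipids, was high in the controls and fell: 1246, 1183 and 1245 CPM in the controls and 307, 381 and 296 CPM after Foxl2 siRNA (log2 change -1.900 ± 0.12 SE, adjusted p = 4.18e-07). Cers5, a ceramide synthase, measured 141, 145 and 146 CPM in the controls and 62.1, 57.9 and 57.7 CPM after Foxl2 siRNA (log2 change -1.28 ± 0.06 SE, adjusted p = 1.67e-07). Sulf2, which trims sulfates from heparan sulfate, measured 481, 491 and 484 CPM in the controls and 179, 197 and 214 CPM after Foxl2 siRNA (log2 change -1.302 ± 0.08 SE, adjusted p = 4.18e-07), and Pcsk5, a proprotein convertase, measured 191, 208 and 211 CPM in the controls and 82.99, 94.5 and 86.3 CPM after Foxl2 siRNA (log2 change -1.21 ± 0.06 SE, adjusted p = 1.34e-07). Luzp4, Gm15127, Gm15107 and Gm10439, neighbours on the X chromosome, had log2 changes of -3.403, -3.32, -3.07 and -3.04, with adjusted p from 1.67e-07 to 4.18e-07. They are similar in sequence and their reads may be shared, so they are not 4 independent results. Among those that rose, Per2, a repressor of the circadian clock, measured 18.1, 19.3 and 19.5 CPM in the controls and 60.4, 63.2 and 73.5 CPM after Foxl2 siRNA (log2 change 1.79 ± 0.12 SE, adjusted p = 8.01e-07). Hdac6, a cytoplasmic deacetylase, measured 46.9, 41.3 and 43.9 CPM in the controls and 106, 105 and 87.95 CPM after Foxl2 siRNA (log2 change 1.18 ± 0.08 SE, adjusted p = 8.28e-07). Crb2, a polarity protein, measured 20.6, 23.4 and 21.1 CPM in the controls and 65.4, 72.3 and 53.8 CPM after Foxl2 siRNA (log2 change 1.56 ± 0.11 SE, adjusted p = 8.01e-07), and Epn3, an endocytic adaptor, measured 11.7, 12.3 and 11.9 CPM in the controls and 49.9, 41.03 and 35.6 CPM after Foxl2 siRNA (log2 change 1.82 ± 0.13 SE, adjusted p = 9.42e-07). Arhgap21, a GTPase-activating protein, measured 218, 199.97 and 206 CPM in the controls and 612, 573 and 522 CPM after Foxl2 siRNA (log2 change 1.45 ± 0.10 SE, adjusted p = 9.47e-07), and Arhgap28, another such protein, fell: 135, 121 and 129 CPM in the controls and 21.9, 28.2 and 23.9 CPM after Foxl2 siRNA (log2 change -2.38 ± 0.15 SE, adjusted p = 4.18e-07).

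**Figure D4:**
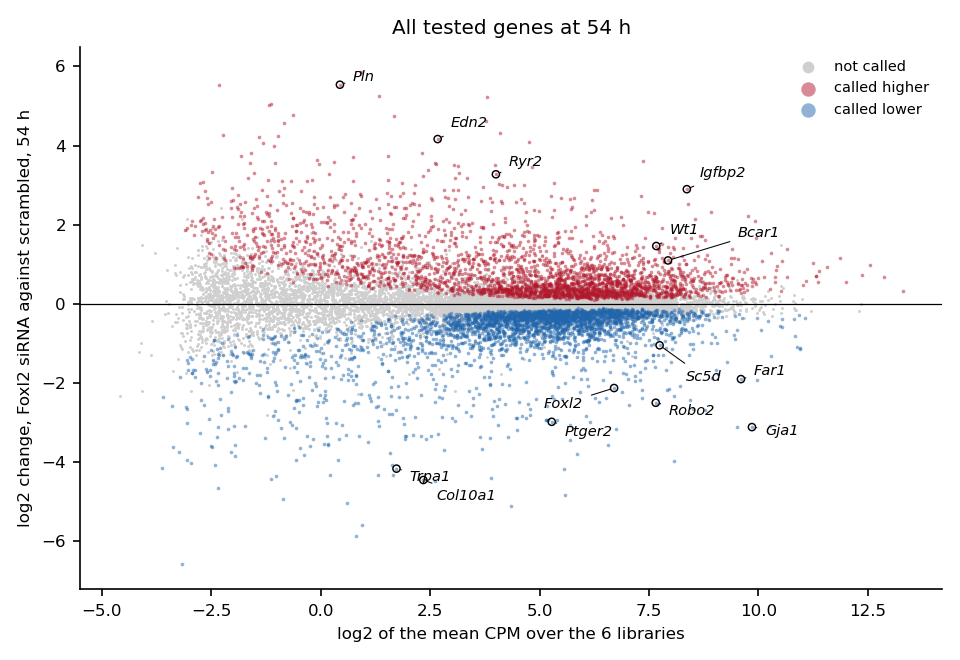
Log2 change at 54 h against the log2 of the mean CPM over the 6 libraries for the 14907 tested genes, with genes called higher in red and lower in blue. Circled genes are named in the text, from Pln at 5.54 to Col10a1 at -4.45, and the spread of genes that were not called (grey) widens toward low expression.

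Markers of other ovarian cells were measured in the same libraries. Surface epithelium and mesothelium markers rose, 13 of 19 tested higher (68.4%, against 18.5% of all genes) and 0 lower (against 20.3%). Their summed level went from 1460 to 1488 CPM in the controls to 1988 to 2645 CPM. Msln (mesothelin) measured 15.6, 23.3 and 22.8 CPM in the controls and 139.7, 135 and 104 CPM after Foxl2 siRNA (log2 change 2.62 ± 0.25 SE, adjusted p = 1.02e-05), and Upk3b, an uroplakin, measured 13.6, 33.9 and 24.6 CPM in the controls and 90.5, 167 and 103 CPM after Foxl2 siRNA (log2 change 2.33 ± 0.39 SE, adjusted p = 0.000517). Wt1, Krt18 and Pdpn stand on this list and on the Sertoli list, and Rspo1 on this list and on that of granulosa identity. Cdh1, the epithelial cadherin, was under 1 CPM in every library and not called (log2 change -0.79 ± 0.49 SE, adjusted p = 0.229), and Krt19 was not called (log2 change 0.55 ± 0.22 SE, adjusted p = 0.0667). Endothelial markers were called higher in 6 of 16 (37.5%, against 18.5% of all genes) and lower in 0 (1 without Foxl2 siRNA replicate 2). Their summed levels were 28.4 to 46.6 CPM in the controls and 74.2 to 97.2 CPM after Foxl2 siRNA. But the defining genes Cdh5 (log2 change -0.06 ± 0.63 SE, adjusted p = 0.946) and Pecam1 (log2 change 0.300 ± 0.32 SE, adjusted p = 0.485) were not called. Theca and stroma markers were called higher in 1 (5.3%) and lower in 2 (10.5%) of 19, less often than all genes (18.5% and 20.3%). Their sum, 4560 to 5511 CPM in the controls and 8196 to 10609 CPM after Foxl2 siRNA, was mostly Aldh1a1. Smooth muscle and pericyte markers were called higher in 2 of 16 (12.5%, against 18.5% of all genes) and lower in 0 (against 20.3%). Their sums were 656 to 1619 CPM in the controls and 969 to 1886 CPM after Foxl2 siRNA. Of those, Myh11, smooth muscle myosin, measured 12.2, 69.2 and 39.6 CPM in the controls and 10.7, 36.3 and 48.8 CPM after Foxl2 siRNA and was not called. Leukocyte genes were low, with Ptprc (CD45) at 1 and 3 counts and Adgre1 at 1 and 2 counts over the controls and the Foxl2 siRNA libraries. Csf1r, of the same list, had 120 and 332 counts. The summed level was 4.9 to 5.0 CPM in the controls and 6.3 to 7.3 CPM after Foxl2 siRNA. Of 7 tested, 2 were called higher (28.6%, against 18.5% of all genes) and 1 lower (14.3%, against 20.3%). The lower call was lost in 4 of the 6 fits without 1 library. The oocyte gene Zp3 had 2 and 0 counts, and Gdf9, another oocyte gene, had 61 and 56. Of 4 tested oocyte markers, 0 were called higher and 1 lower (25%, against 20.3% of all genes). The globin gene Hbb-b1 had 0 counts in both groups, while the erythroid marker Alas2 had 43 and 198. Of 4 tested erythroid markers, 1 was called higher and 1 lower (25% each, against 18.5% and 20.3% of all genes). Their summed level was 23.7 to 25.9 CPM in the controls and 20.7 to 22.2 CPM after Foxl2 siRNA. The part of the surface epithelium and endothelial markers in the changes of other lists was not tested.

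Part of the response at 54 h was already present at 30 h, in libraries other than those compared at 54 h. Libraries of the 2 times carry the same replicate numbers, and the labels do not say whether they came from the same cell preparations. Both comparisons came from the same fit of all 15 libraries and share its estimates of spread. At 30 h 1936 genes were called (13% of those tested). Of these, 1822 were also called at 54 h, which is 94.1% of the 30 h calls and 31.5% of the 54 h calls, and all 1822 kept their sign. The change was larger at 54 h in 1603 of them. When the difference between the 2 changes was tested, 1 gene passed (0.00671% of those tested): Gadd45b, whose log2 change was 0.75 at 30 h and 1.84 at 54 h (difference 1.09 ± 0.12 SE, unadjusted p = 5.22e-07, adjusted p = 0.00778). At an unadjusted p under 0.05 there were 1510 genes. The number that passed depended on Foxl2 siRNA replicate 2 of 54 h, since 904 passed without it, 16 passed without replicate 3 and 2 without scrambled replicate 2. DESeq2 gave 192 and limma voom with sample weights 1056. The genes with the next smallest p included Sulf1, a heparan sulfatase, with log2 changes of 0.61 at 30 h and 2.16 at 54 h (difference 1.55 ± 0.25 SE, unadjusted p = 3.6e-05, adjusted p = 0.0766), and Robo2, with -1.21 and -2.498 (difference -1.29 ± 0.20 SE, unadjusted p = 2.45e-05, adjusted p = 0.0742). Ptger2 went from -1.64 to -2.98 (difference -1.34 ± 0.23 SE, unadjusted p = 6.18e-05, adjusted p = 0.0961).

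**Figure D5:**
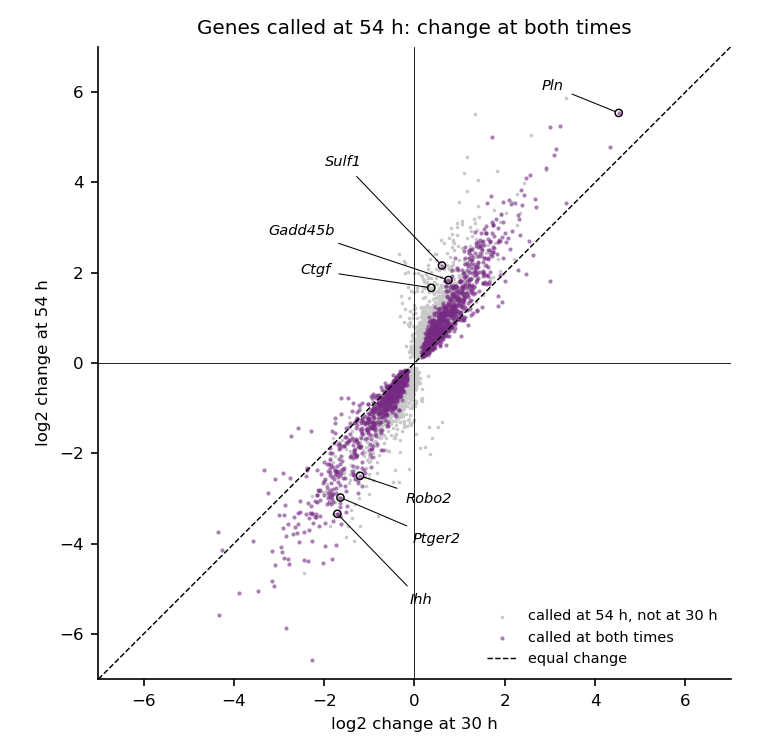
Log2 change at 54 h against that at 30 h for the 5787 genes called at 54 h, in purple where also called at 30 h, with the line of equal change dashed. Most purple points lie beyond the line, away from 0, and Gadd45b is the gene whose difference between times passed the adjusted test.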

How the data were processed

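RNA-seq counts of primary mouse granulosa cells were used as deposited by the authors: whole-number read counts per gene, not normalized. Per the labels' protocols, 1.3 µg of RNA entered the TruSeq mRNA Stranded kit, and a NextSeq500 gave single-end reads of 75 bases. Tools listed in the submitters' processing notes are TopHat2, DESeq2 and bcl2fastq 2.15.0, with mm10 as the build. How reads were assigned to genes (program, gene models, strand) is not given in the sources used here. The protocol text speaks of 30 h, and the 54 h of these libraries comes from their titles.

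The 92 ERCC spike-in rows entered neither library sizes nor tests. Genes passing edgeR's filterByExpr were tested with edgeR 4.0.16 (R 4.3.3) in 1 fit of all 15 libraries in 5 groups, with TMM scaling and 10 residual degrees of freedom, by the quasi-likelihood F test with Benjamini-Hochberg adjustment over 14907 genes. SE is the log2 change divided by the root of F. The biological coefficient of variation was 0.148. Alternatives were upper-quartile scaling, no filter, the 6 libraries alone, a replicate block, each 54 h library left out, limma 3.58.1 voom with sample weights and DESeq2 1.42.0. No 30 h library was left out. The fit was tested on simulated data. No 2 libraries of a group agreed within sampling noise. Named genes are Foxl2, the 15 called genes in each direction with the smallest p among those changed at least 2-fold, without overlap and with a mean of at least 1 CPM, listed anchor genes and up to 5 called members per direction of each list, and the 10 genes with the smallest p for the time difference. The members and lists were chosen with earlier results of these data known. Promoter windows are from RefSeq tables on GRCm38.p6 and matched 2 of 4 genes asked for. Intervals cover counting error only. Results for a few genes are not reported here.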

Additional observations from a re-analysis of the deposited data

Results flagged for a closer look

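Gadd45b, a stress-inducible growth arrest gene, was singled out because its Foxl2 siRNA change differed between times by a test of the difference itself. The log2 change was 1.84 at 54 h and 0.75 at 30 h, a difference of 1.09 (adjusted p = 0.00778 in edgeR's quasi-likelihood F test over 14907 genes). Groups of 3 libraries were too small for a search for single outlying libraries.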

How the results depend on the processing

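The counts of genes called at 54 h (in all, higher, lower and at least 2-fold) stayed within 1.5 times their main values under every alternative run. Of the 5787 genes called, 74.4% to 97.9% were also called under each alternative, all with the same sign. With upper-quartile scaling 52.0% of the calls were higher, against 47.6%. The count for the time difference, 1 gene, moved. It ranged from 1 to 904 when 1 library of 54 h was left out. It was 904, 16 and 2 when Foxl2 siRNA replicate 2, Foxl2 siRNA replicate 3 or scrambled replicate 2 was left out. With limma voom it was 1056 and with DESeq2 192, and the cause was not tested. Same-numbered libraries had correlated deviations of 0.397, 0.015 and 0.136 (Pearson r across genes), so the numbers were not taken to pair them. With the replicate block, 5754 genes were called, 2735 higher and 3019 lower, 1555 of all calls at least 2-fold, and 1 gene for the time difference; 5520 of the main calls were shared. Of 406 called genes named by the rule, 58, 17 and 46 lost their call when Foxl2 siRNA replicate 1, 2 or 3 was left out, and 49, 40 and 51 when scrambled replicate 1, 2 or 3 was. The fit of the 6 libraries alone lost 45 of these calls. It took members called higher from 10 to 5 for cholesterol synthesis and from 5 to 3 for steroidogenesis, and members called lower from 14 to 9 for gonadal factors, 7 to 4 for TGF-beta receptors, Smads and targets, 6 to 3 for lipoprotein uptake, 5 to 3 for hedgehog and for plasminogen activators, and 3 to 1 for focal adhesion. With limma voom, members called higher went from 10 to 20 for cholesterol synthesis, 15 to 24 for interferon response, 5 to 9 for cadherins, 5 to 8 for steroidogenesis and 4 to 7 for transporters. Without Foxl2 siRNA replicate 2, 28 of these genes had a fold more than 1.5 times larger. At this depth, genes under about 3 counts in a library were not told apart from 0.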
